A study of Mus musculus with 27 samples.

Results

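Complexes III and IV of the respiratory chain and ATP synthase carry out the last steps of oxidative phosphorylation in mitochondria. Their nuclear-encoded subunits were followed here in mouse hearts under pressure overload, with and without the BET bromodomain inhibitor JQ1. The members are all genes of the array annotation whose symbols start with Uqcr, Cox4, Cox5, Cox6, Cox7, Cox8 or Atp5 and that a probe set names alone. They are 42 of the 19937 genes measured: 8 of complex III, 17 of complex IV and 17 of ATP synthase. Where several probe sets named a gene, the one with the highest mean was used, which applied to 12 of the 42.

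Hearts came from male C57Bl/6J littermates aged 10 to 12 weeks. Transverse aortic constriction (TAC) narrows the aortic arch so that the left ventricle pumps against a higher pressure, and the labels give a gradient of about 50 mmHg. Injections of JQ1 or of the DMSO vehicle started 1.5 days after surgery, and a piece of heart of 10 to 20 mg gave the RNA. The 27 arrays form 9 groups of 3, taken at days 3, 11 and 28: sham-operated hearts that received vehicle, TAC hearts that received vehicle, and TAC hearts that received JQ1. No sham group given JQ1 was analysed here, so each JQ1 effect is an effect in hearts with TAC. The labels do not say that the arrays of a group came from separate animals, so p-values measure the spread between these arrays only.

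Complex III passes electrons from ubiquinol to cytochrome c, and complex IV, cytochrome c oxidase, passes them on to oxygen. Both pump protons across the inner membrane, and ATP synthase uses the proton gradient to make ATP. The heart is one of the tissues richest in these complexes, and several complex IV subunits exist as an isoform of heart and skeletal muscle and an isoform of most other tissues. Subunits encoded in mitochondrial DNA, cytochrome c and cytochrome c1 lie outside the choice of symbols.

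The values are log2 signals, so a difference of 1 is a doubling. On this scale the 42 genes were among the brightest of the array, with 32 of them in the top 5% of genes (mean level 10.57 or more, against a median of 7.34 over all genes). The 3 isoforms known mainly from testis were dim: Cox8c (6.73), Cox6b2 (6.58) and Cox7b2 (4.79). The array spread of the members was small, with a median residual SD of 0.066 against 0.127 over all genes. Array medians lay between 6.954 and 7.043, no pair of the 351 pairs of arrays was a duplicate, and each array correlated with its group at a mean r of 0.988 to 0.997. Heart muscle markers were bright in all arrays (10 genes, group means 13.33 to 13.45), while the medians of the 7 skeletal muscle markers ran from 5.72 (the myosin gene Myh4) to 7.70 (Tnni2), with Tnni2 and Tnnt3 above the median gene. Of the 6 fat markers Adipoq (5.12) was dimmest, Ucp1 stood at 5.69, and Cidea (8.38) was the only 1 above the median gene. In whole hearts, fewer cells of a type and less RNA per cell cannot be told apart.

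Promoter windows of 300 bases (250 before the start of transcription and 50 after it) were at hand in RefSeq, build GRCm38.p6, for 32 of the 42 genes. Each was searched on both strands for motifs of factors known to control respiratory genes. A gene counted if any of its windows matched, and 3 of the 32 had several windows. The NRF1 core GCATGCGC was found in 6 of the 32 genes (18.8%), against 3.05% of 27025 genes with a window and 3.94% of 17492 coding genes. The ETS motif CCGGAAG, which GABP binds, was in 11 (34.4%, against 9.93% of all and 12.9% of coding genes). The estrogen-related receptor motif AAGGTCA was in 4 (12.5%, against 5.38% of all genes), all of ATP synthase, and its longer form TCAAGGTCA was in 1 (Atp5g3). The YY1 motif AAGATGG was in 3 (9.38%, against 7.28%), and in 2 of them as AAGATGGCG. The NRF1 site is nearly a palindrome, so its matches on the 2 strands overlap. The windows of 5 genes on which the results below turn are shown 5′ to 3′ on the strand of the gene, with motif matches on either strand in capitals, to set genes that fell with TAC beside one that rose. Cox4i1 and Cox6a2, which also fell, had no window. They are Atp5k (chr5:108434350-108434649, minus strand), Atp5e (chr2:174464052-174464351, minus), Uqcrc1 (chr9:108936398-108936697, plus), Cox7a1 (chr7:30183921-30184220, plus) and Cox6a1 (chr5:115348909-115349208, minus).
Atp5k: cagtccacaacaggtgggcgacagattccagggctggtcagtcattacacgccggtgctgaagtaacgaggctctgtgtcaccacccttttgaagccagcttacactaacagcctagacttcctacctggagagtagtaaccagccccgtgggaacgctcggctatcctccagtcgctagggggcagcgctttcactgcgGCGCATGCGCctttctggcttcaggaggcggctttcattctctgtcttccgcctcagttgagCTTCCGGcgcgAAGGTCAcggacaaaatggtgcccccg
Atp5e: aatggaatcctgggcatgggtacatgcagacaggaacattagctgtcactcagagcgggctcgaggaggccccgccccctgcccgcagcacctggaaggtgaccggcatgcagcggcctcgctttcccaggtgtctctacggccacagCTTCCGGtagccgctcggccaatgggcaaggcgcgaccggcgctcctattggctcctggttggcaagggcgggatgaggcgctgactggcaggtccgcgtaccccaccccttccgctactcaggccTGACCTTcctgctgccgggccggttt
Uqcrc1: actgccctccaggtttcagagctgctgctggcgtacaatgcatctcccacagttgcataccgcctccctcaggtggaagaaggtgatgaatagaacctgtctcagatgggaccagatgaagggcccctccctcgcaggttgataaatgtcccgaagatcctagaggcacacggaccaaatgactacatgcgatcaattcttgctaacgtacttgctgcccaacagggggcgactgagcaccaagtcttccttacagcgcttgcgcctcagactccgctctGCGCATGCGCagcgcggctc
Cox7a1: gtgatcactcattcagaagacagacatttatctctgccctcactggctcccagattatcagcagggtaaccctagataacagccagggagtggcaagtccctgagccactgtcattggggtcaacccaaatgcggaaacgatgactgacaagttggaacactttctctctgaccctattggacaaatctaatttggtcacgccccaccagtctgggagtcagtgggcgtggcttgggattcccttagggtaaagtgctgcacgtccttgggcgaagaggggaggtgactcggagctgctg
Cox6a1: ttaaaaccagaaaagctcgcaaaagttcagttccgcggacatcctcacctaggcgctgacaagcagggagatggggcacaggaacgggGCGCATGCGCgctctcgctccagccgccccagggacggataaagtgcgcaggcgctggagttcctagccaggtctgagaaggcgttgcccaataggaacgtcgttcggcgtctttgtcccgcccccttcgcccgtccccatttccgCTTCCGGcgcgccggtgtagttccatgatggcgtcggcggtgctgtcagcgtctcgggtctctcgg
The window of Atp5k held matches for NRF1, ETS and the estrogen-related receptor, and that of Atp5e for the latter 2. The window of Cox6a1, which rose with TAC, held NRF1 and ETS matches as well, and that of Cox7a1 held none of the motifs. A match describes letters in these windows and does not show that a factor binds there.

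At day 3 after TAC the 42 genes stood slightly below sham, and few passed the test. Of the 42 changes 39 were below 0, against 11820 of the 19937 genes, with a median of −0.10 against −0.03 over all genes. Members were called at an adjusted p under 0.05 (limma, Benjamini-Hochberg over the 19937 genes). By this rule 2 members changed, 1 higher and 1 lower, where 7.55% of all genes were called (4.22% higher and 3.33% lower). The 3 TAC arrays lay wholly below the 3 sham arrays for 17 members and wholly above for 1, against 11.9% and 9.7% of all genes.

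Atp5h, a subunit of the peripheral stalk that holds the catalytic head of ATP synthase still, had levels of 12.95, 12.70 and 12.88 in the day 3 sham arrays and 12.72, 12.61 and 12.58 after TAC. The groups overlapped, since 1 sham array (12.70) lay below 1 TAC array (12.72), and the change was −0.21 ± 0.06 (SE, n = 3 arrays a group; limma adjusted p = 0.0396). Cox6a1, the complex IV subunit 6A isoform of most tissues, went the other way, from 9.93, 9.83 and 9.75 to 10.08, 10.28 and 10.05. All TAC arrays were above all sham arrays (0.29 ± 0.09, limma adjusted p = 0.0404). Both calls depended on single arrays: Atp5h was lost in 4 and Cox6a1 in 3 of the 6 omissions of 1 array. Without sham replicate 3 or TAC replicate 2 no member was called, and without sham replicate 1 there was 1. In the same arrays 3 of 8 fibroblast, 3 of 8 macrophage and 2 of 5 smooth muscle markers rose, and their part in these changes was not tested.

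Day 11 had the most members called with TAC. Of the 42 genes 37 were below sham, against 9508 of the 19937 genes. The median was −0.13 against 0.01 over all genes. In the test 12 fell and 1 rose, where 15.5% of all genes were called (7.73% lower, 7.8% higher). The TAC arrays lay wholly below sham for 33 members and wholly above for 2, Cox6a1 and Cox4i2, against 16.6% and 16.8% of all genes. The median was −0.12 for complex III (2 of 8 lower), −0.11 for complex IV (4 of 17 lower, 1 higher) and −0.17 for ATP synthase (6 of 17 lower). Changes of called members were modest in size, from 0.19 to 0.53 on the log2 scale. The median over all 42 members was −0.11 after quantile normalization of the arrays again and −0.13 after centring each array on its median. Without sham replicate 1 or sham replicate 3 the calls fell to 8 and 7, all lower.

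**Figure D1:**
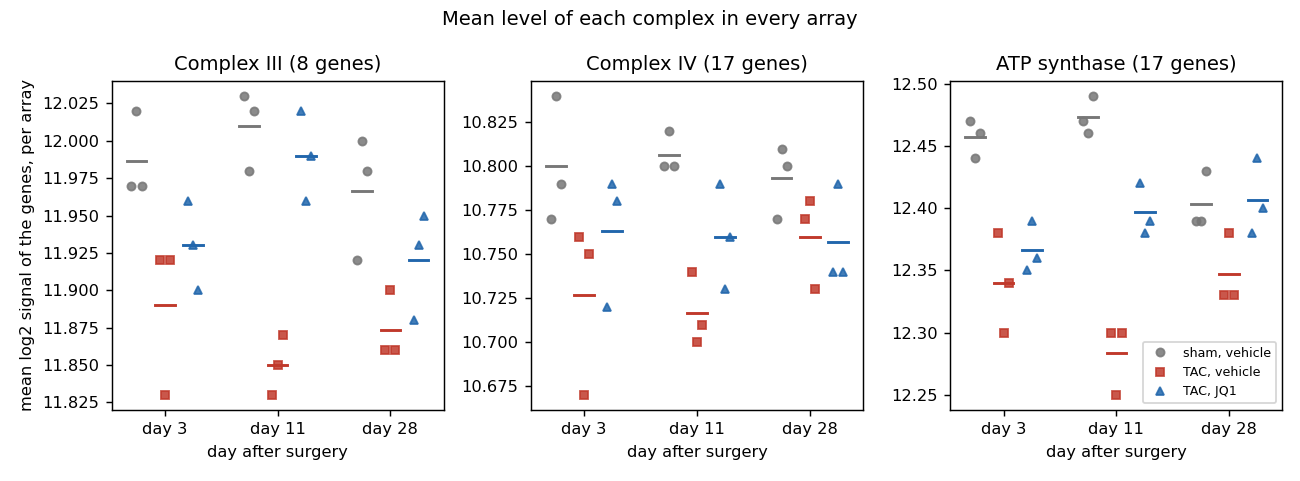
Mean log2 signal of the genes of complex III, complex IV and ATP synthase in each of the 27 arrays (points), by day and group, with the group mean as a line. At day 11 the 3 TAC vehicle arrays lie below the 3 sham arrays in each panel (11.83 to 11.87 against 11.98 to 12.03 for complex III), and the y axes do not start at 0.

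In complex III, Uqcrc1 codes for a core protein on the matrix side. Its day 11 levels were 12.48, 12.43 and 12.46 in sham hearts and 12.11, 12.14 and 12.12 after TAC. The groups did not overlap, with a change of −0.33 ± 0.08 (limma adjusted p = 0.00324). Their spread was 0.02 (SD), while the residual SD of the gene over the 9 groups, which the test used, was 0.086. The small subunit gene Uqcrq went from 11.88, 11.82 and 11.87 to 11.64, 11.61 and 11.65, again without overlap (−0.22 ± 0.06, limma adjusted p = 0.0183). The other 6 genes, among them Uqcrc2 for the second core protein and Uqcrfs1 for the Rieske iron-sulfur protein, did not pass. Their changes lay between −0.21 (Uqcr10) and −0.07 (Uqcr11).

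In complex IV, Cox4i1 codes for the main isoform of subunit 4, which binds ATP and ADP. It stood at 12.15, 12.15 and 12.14 in sham hearts and at 11.90, 11.72 and 11.83 after TAC at day 11 (−0.33 ± 0.07, limma adjusted p = 0.0019). Cox7a1, the heart and muscle isoform of subunit 7A, went from 13.14, 13.14 and 13.16 to 12.87, 12.77 and 12.87 (−0.31 ± 0.06, limma adjusted p = 0.000576). Neither gene had an overlap between the groups. Cox6a2, the heart and muscle isoform of subunit 6A, went from 12.73, 12.74 and 12.81 to 12.59, 12.42 and 12.50 (−0.26 ± 0.06, limma adjusted p = 0.00624). Cox5a, a subunit on the matrix side, went from 11.63, 11.61 and 11.63 to 11.42, 11.49 and 11.37 (−0.20 ± 0.06, limma adjusted p = 0.0223). In both, every TAC array was below every sham array. Cox6a1 again rose, from 9.88, 9.83 and 9.92 to 10.12, 10.02 and 10.30 without overlap (0.27 ± 0.09, limma adjusted p = 0.0393). The 12 complex IV genes that did not pass lay between −0.19 (Cox7a2) and 0.13 (Cox4i2).

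In ATP synthase, Atp5k, which codes for subunit e of the membrane part where the enzyme forms dimers, showed the largest drop of the 42 genes. Its day 11 levels were 9.62, 9.72 and 9.73 in sham hearts and 9.28, 9.04 and 9.15 after TAC. The groups did not overlap, and the change was −0.53 ± 0.10 (0.693-fold; limma adjusted p = 0.000423). Atp5e, the epsilon subunit of the catalytic F1 head, went from 10.72, 10.48 and 10.65 to 10.25, 10.04 and 10.23 (−0.44 ± 0.09, limma adjusted p = 0.00145). It was the only 1 of the 5 F1 genes to pass, and the genes of the catalytic alpha and beta subunits, Atp5a1 (−0.13) and Atp5b (−0.09), did not. Of the 3 genes for the c subunit, whose ring turns in the membrane, Atp5g2 went from 12.48, 12.50 and 12.50 to 12.32, 12.09 and 12.27 (−0.26 ± 0.06, limma adjusted p = 0.00492). Atp5g3 (−0.19, adjusted p = 0.0405) also fell and Atp5g1 (−0.06) did not pass. In the peripheral stalk Atp5h went from 12.78, 12.78 and 12.88 to 12.55, 12.63 and 12.59 (−0.22 ± 0.06, limma adjusted p = 0.0143). Atp5pb, the b subunit, fell with it (−0.22, adjusted p = 0.0307), while Atp5o (−0.17) and Atp5j (−0.11) did not pass.

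Of the 13 day 11 calls, those of Atp5k, Atp5e, Cox4i1, Cox7a1, Cox6a2 and Uqcrc1 held in all 13 alternative settings, with adjusted p of at most 0.0451. That of Atp5g2 held in each omission of 1 array but not with the mean of its probe sets (adjusted p = 0.118), and 1 of its 3 probe sets showed a change of 0.01. The other 6 were lost in 2 to 5 of the 6 omissions of 1 array. Over the 42 genes the correlation of mean level and day 11 change was −0.23 (Pearson) and −0.04 (Spearman), a description across genes of the same arrays.

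Markers of other cells moved in the same arrays. Fibroblast markers rose with TAC at day 11 in 6 of 8, from a mean level of 9.36 to 9.42 in sham arrays to 10.17 to 10.30. Macrophage markers rose in 8 of 8, from 8.92 to 9.01 up to 9.56 to 9.70, and endothelial and smooth muscle markers in 2 of 7 and 2 of 5. Heart muscle markers had a mean level of 13.42 to 13.43 in sham arrays and 13.33 to 13.34 after TAC, with 1 of 10 lower, the calcium release channel gene Ryr2 (−0.29 ± 0.07). At day 28 8 of 8 fibroblast and 8 of 8 macrophage markers were higher than in sham hearts. Of the 7 endothelial markers 1 was higher (Emcn, 0.48 ± 0.11) and 1 lower (Flt1, −0.31 ± 0.09). Of the 5 smooth muscle markers 1 was lower (Myh11, −0.29 ± 0.08) and 0 higher. On that day 2 of 10 heart muscle markers were lower, Ryr2 (−0.45 ± 0.07) and the myosin gene Myh6 (−0.26 ± 0.05). No fat or skeletal muscle marker was called with TAC (0 of 6 and 0 of 7 on each day). The part of these shifts in the changes of the 42 genes was not tested.

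**Figure D2:**
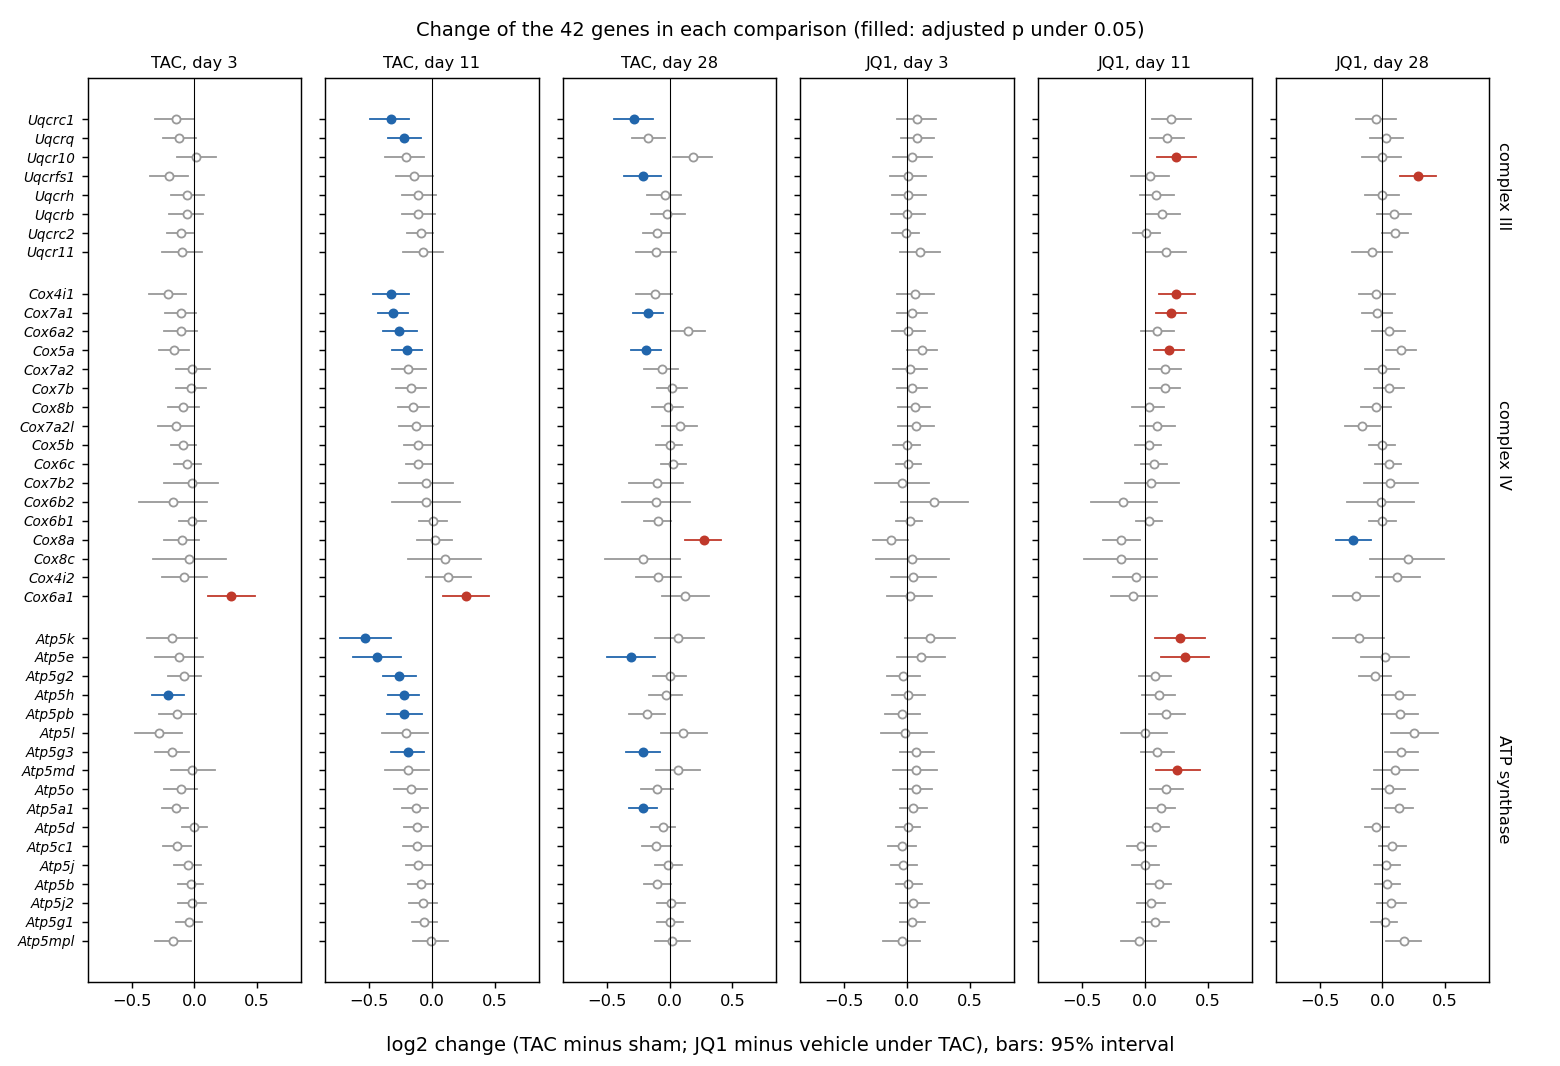
Log2 change of each of the 42 genes with its 95% interval, TAC minus sham (left 3 panels) and JQ1 minus vehicle under TAC (right 3 panels), with filled blue for genes called lower and filled red for higher. The blue points gather at TAC day 11 (12 genes) and the red ones at JQ1 day 11 (7 genes), where the 2 comparisons share the TAC vehicle arrays.

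At day 28 fewer members were called. Of the 42 genes 28 were below sham, against 12371 of the 19937 genes. The median was −0.06 against −0.05 over all genes. In the test 7 fell and 1 rose, where 15.1% of all genes were called (6.98% lower, 8.13% higher). TAC arrays lay wholly below sham for 13 members and wholly above for 3, against 21.1% and 16.6% of all genes. The 5 genes that fell at both day 11 and day 28 were Atp5e, Atp5g3, Cox5a, Cox7a1 and Uqcrc1. Atp5a1 and Uqcrfs1 fell at day 28 without having passed earlier, and the 3 genes wholly above sham were Cox8a, Cox6a2 and Uqcr10.

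Atp5a1, the alpha subunit of the F1 head, had day 28 levels of 13.44, 13.38 and 13.41 in sham hearts and 13.20, 13.26 and 13.15 after TAC. Every TAC array was lower (−0.21 ± 0.05, limma adjusted p = 0.00655). Uqcrfs1, which carries the iron-sulfur cluster that takes an electron from ubiquinol, went from 10.23, 10.20 and 10.10 to 9.90, 9.91 and 10.07, again without overlap (−0.21 ± 0.07, limma adjusted p = 0.0444). Uqcrc1 went from 12.34, 12.47 and 12.48 to 12.19, 12.28 and 11.97 (−0.28 ± 0.08, limma adjusted p = 0.0119). Atp5e went from 10.38, 10.46 and 10.67 to 10.19, 10.33 and 10.06 (−0.31 ± 0.09, limma adjusted p = 0.0217). Both were wholly below sham, as were Atp5g3 (−0.21, adjusted p = 0.0243), Cox5a (−0.19, adjusted p = 0.0253) and Cox7a1 (−0.17, adjusted p = 0.0499). Atp5g3 went from 12.87, 12.81 and 12.84 to 12.66, 12.68 and 12.53, and Cox5a from 11.62, 11.61 and 11.56 to 11.39, 11.49 and 11.34. Cox7a1 went from 13.07, 13.22 and 13.16 to 13.00, 13.05 and 12.88.

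Cox8a, the subunit 8 isoform of most tissues, was the gene that rose at day 28. It stood at 10.83, 10.87 and 10.87 in sham hearts and at 11.14, 11.09 and 11.14 after TAC, without overlap (0.27 ± 0.07, limma adjusted p = 0.00891). The residual SD of Cox8a over the 9 groups was 0.073. Its call held in all 13 alternatives, while the other 7 were lost in at least 1 of them. The count of 8 fell to 3 without TAC replicate 3, to 4 without TAC replicate 1, sham replicate 2 or sham replicate 3, and to 5 without sham replicate 1. Only 1 gene, Cox8a, was called when these 2 groups were fitted alone.

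Averaged over the 3 days, 16 of the 42 genes fell with TAC and 1 rose (Cox6a1, 0.23 ± 0.05), where 25.9% of all genes were called (12.9% lower, 13% higher). The count stayed between 16 and 19 when single arrays were left out. The fall was largest for Atp5e (−0.29 ± 0.05, limma adjusted p = 0.000158) and Uqcrc1 (−0.26 ± 0.04, limma adjusted p = 7.8e-05). It included genes that had not passed on any single day: Uqcrc2 (−0.10), Atp5o (−0.13) and Atp5c1 (−0.12), the gamma subunit that turns within the F1 head.

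Whether the TAC effect differed between days was tested directly. It did for 1 of the 42 genes (1.31% of all genes were called), Cox6a2, with changes of −0.11, −0.26 and 0.15 at days 3, 11 and 28 (F = 10.33, limma adjusted p = 0.0496). Its day 3 levels were 12.70, 12.66 and 12.74 in sham hearts and 12.65, 12.54 and 12.59 after TAC. Its day 28 levels were 12.55, 12.59 and 12.67 in sham hearts and 12.78, 12.75 and 12.72 after TAC, so the TAC arrays were all below sham at days 3 and 11 and all above at day 28. The result lay at the edge of the threshold and was lost in 17 of 18 omissions of 1 array (adjusted p up to 0.125). Atp5k came next, with changes of −0.18, −0.53 and 0.07 (adjusted p = 0.055), then Cox8a with −0.10, 0.02 and 0.27 (adjusted p = 0.093). At day 28 Atp5k stood at 9.45, 9.49 and 9.62 in sham hearts and at 9.57, 9.74 and 9.47 after TAC, with overlap.

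With JQ1 under TAC, no member changed at day 3 (0 of 42 called by limma, and 0 at an unadjusted p under 0.05), where 11.9% of all genes were called (4.28% higher, 7.61% lower). The median of the members was 0.03, against 0.02 over all genes, and JQ1 arrays lay wholly above vehicle for 2 genes and wholly below for 0, against 11% and 12% of all genes. Injections had begun 1.5 days before these hearts were taken. Markers of other cells had moved by then, with 4 of 8 fibroblast, 6 of 8 macrophage and 2 of 7 endothelial markers lower.

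At day 11 the genes stood higher with JQ1 than with vehicle. Of the 42 genes 8 were below 0, against 12134 of the 19937 genes. The median was 0.10 against −0.05 over all genes. In the test 7 rose and 0 fell, where 16% of all genes were called (7.52% higher, 8.43% lower). JQ1 arrays lay wholly above vehicle for 22 members and wholly below for 1, against 16.8% and 19.5% of all genes. The medians were 0.16 in complex III, 0.05 in complex IV and 0.10 in ATP synthase. After quantile normalization again the median was 0.05 and the calls were 2 higher and 1 lower; after centring on array medians it was 0.13. This comparison and that of TAC with sham share the 3 TAC vehicle arrays, so an error in those arrays moves both in opposite directions.

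Cox4i1 had day 11 levels of 11.90, 11.72 and 11.83 with vehicle and 12.11, 12.04 and 12.05 with JQ1, where sham hearts had 12.14 to 12.15. All JQ1 arrays were above all vehicle arrays and below all sham arrays (JQ1 against vehicle 0.25 ± 0.07, limma adjusted p = 0.0153). Cox7a1 had 12.87, 12.77 and 12.87 with vehicle and 13.07, 13.06 and 13.00 with JQ1 (0.21 ± 0.06, limma adjusted p = 0.0166). Cox5a had 11.42, 11.49 and 11.37 with vehicle and 11.63, 11.58 and 11.65 with JQ1 (0.19 ± 0.06, limma adjusted p = 0.0258). For Cox7a1 the JQ1 arrays again fell between vehicle and sham, and for Cox5a they spanned the sham levels.

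Atp5e had 10.25, 10.04 and 10.23 with vehicle and 10.42, 10.55 and 10.50 with JQ1, with no overlap (0.32 ± 0.09, limma adjusted p = 0.0212). Atp5k had 9.28, 9.04 and 9.15 with vehicle and 9.56, 9.52 and 9.24 with JQ1, and here 1 JQ1 array lay within the vehicle range (0.28 ± 0.10, limma adjusted p = 0.0492). These 5 genes, Cox4i1, Cox7a1, Cox5a, Atp5e and Atp5k, were lower with TAC and higher with JQ1 at day 11. A further pair rose with JQ1 without a TAC call. Atp5md, a small subunit of the membrane part also known as DAPIT, went from 12.80, 12.68 and 12.86 to 13.08, 13.00 and 13.06 (0.26 ± 0.09, limma adjusted p = 0.0359). Uqcr10, a small complex III subunit, went from 10.34, 10.32 and 10.34 to 10.64, 10.59 and 10.53 (0.25 ± 0.07, limma adjusted p = 0.0231). Neither overlapped between groups, but of the 3 probe sets of Atp5md 1 showed a change of 0.00.

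None of the 7 JQ1 calls at day 11 held in every alternative. They were lost in 2 (Cox4i1) to 5 (Uqcr10 and Atp5md) of the 6 omissions of 1 array. The count fell to 1 without vehicle replicate 2 or JQ1 replicate 1, to 2 without JQ1 replicate 2, and to 4 without vehicle replicate 1, vehicle replicate 3 or JQ1 replicate 3. It rose to 13 when the dimmest genes were left out and to 16 with a spread estimate that follows the level.

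In the same comparison 4 of 8 fibroblast markers fell with JQ1 (mean level 9.71 to 9.83), as did 6 of 8 macrophage markers (9.11 to 9.25) and 2 of 7 endothelial markers. Of the 5 smooth muscle markers 1 rose, Myh11 (0.36 ± 0.08), and 0 fell. The heart muscle markers had a mean level of 13.40 to 13.42 with JQ1, with 1 of 10 higher, Myh6 (0.15 ± 0.05). The part of these shifts in the member changes was not tested either.

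**Figure D3:**
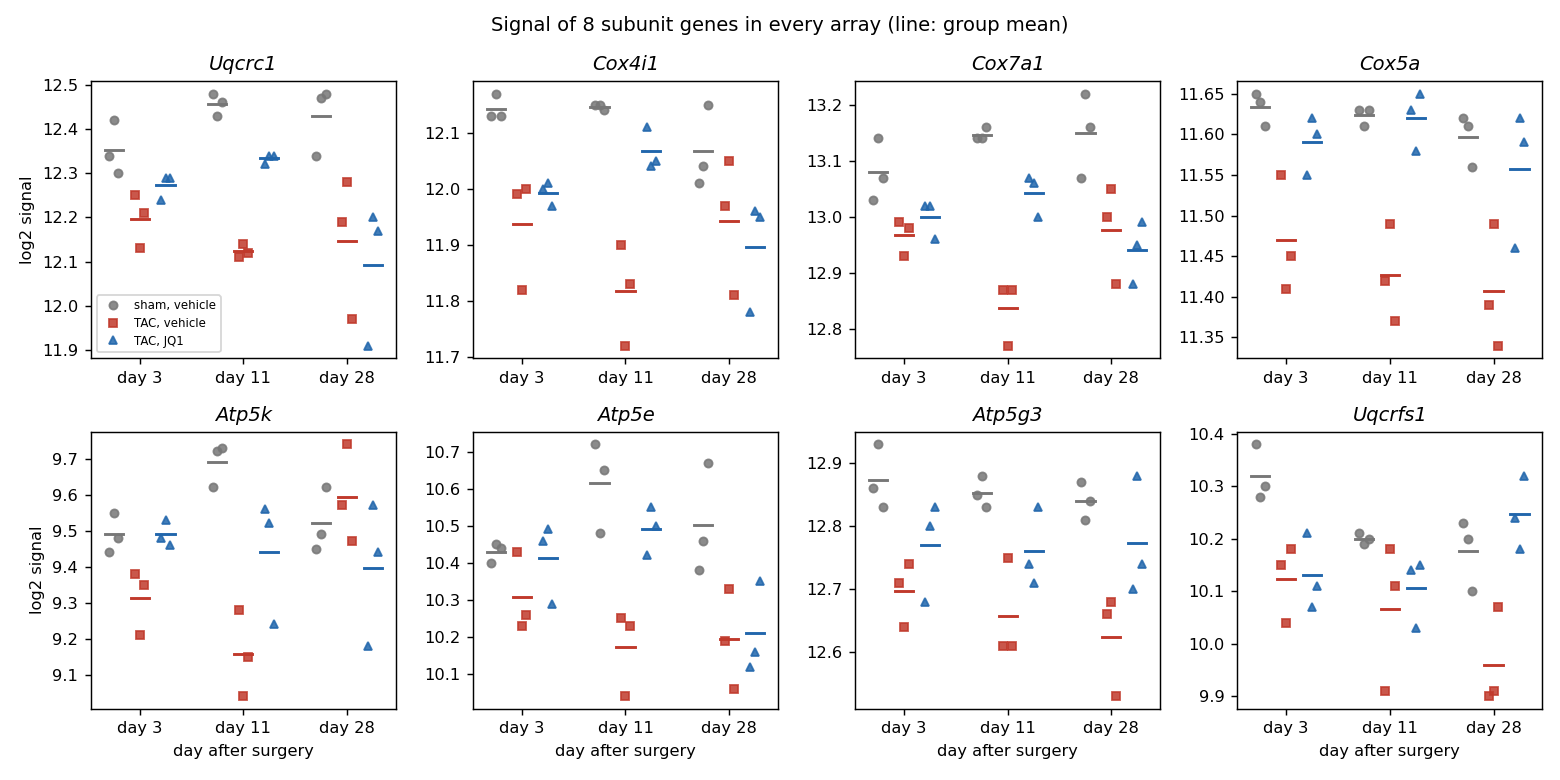
Log2 signal of 8 subunit genes in each array (points) by day and group, with group means as lines and y axes that do not start at 0. At day 11 the TAC vehicle arrays of Cox4i1 lie at 11.72 to 11.90, below the JQ1 arrays at 12.04 to 12.11 and the sham arrays at 12.14 to 12.15.

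At day 28, 2 members changed with JQ1, 1 higher and 1 lower, where 19.6% of all genes were called (7.16% higher, 12.4% lower). The member median was 0.04 against 0.06 over all genes, and 0.00 after centring on array medians. JQ1 arrays lay wholly above vehicle for 7 members and wholly below for 4, against 18% and 17% of all genes. Uqcrfs1 rose from 9.90, 9.91 and 10.07 to 10.24, 10.18 and 10.32 without overlap (0.28 ± 0.07, limma adjusted p = 0.00667), a call that held in all 6 omissions of 1 array. Cox8a, which had risen with TAC, fell from 11.14, 11.09 and 11.14 to 10.98, 10.89 and 10.81, again without overlap (−0.23 ± 0.07, limma adjusted p = 0.0208). That call was lost in 4 of 6 omissions, and without vehicle replicate 1 or JQ1 replicate 2 Uqcrfs1 was the only 1 left. In this comparison 4 of 8 fibroblast, 5 of 8 macrophage and 5 of 7 endothelial markers fell, as did Tagln, 1 of 5 smooth muscle markers. The fat marker Cidea fell (−0.53 ± 0.15) and the skeletal muscle marker Tnni2 rose (0.33 ± 0.11), each as the only 1 of its list, and 0 of 10 heart muscle markers were called. The part of these shifts in the member changes was not tested.

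Averaged over the days, 7 members rose and 1 fell with JQ1, where 29.1% of all genes were called (12.3% higher, 16.8% lower). After quantile normalization again the split was 1 higher and 2 lower, and after centring 3 higher and 1 lower. Cox5a had the smallest p of those that rose (0.15 ± 0.03, limma adjusted p = 0.000966), and Cox8a was the gene that fell (−0.18 ± 0.04, limma adjusted p = 0.00101), with −0.13, −0.19 and −0.23 on the 3 days. The day 3 JQ1 arrays of Cox8a were 10.55, 10.87 and 10.87, so replicate 1 stood apart from the others there. The count over all members ranged from 4 to 10 when single arrays were left out. Whether the JQ1 effect differed between days passed for 0 members (5 at an unadjusted p under 0.05; 1.07% of all genes were called). The smallest p-values were those of Atp5k (adjusted p = 0.117; changes 0.18, 0.28 and −0.19), Cox4i1 (adjusted p = 0.182) and Cox7a1 (adjusted p = 0.187).

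Set directly against sham, TAC hearts given JQ1 had 6 members changed at day 3 (5 lower, 1 higher), where 17.6% of all genes were called by limma (10.7% lower, 6.94% higher). They were Cox6a1 (0.31 ± 0.09), Atp5l (−0.30 ± 0.09), Cox8a (−0.23 ± 0.07), Atp5mpl (−0.22 ± 0.07), Atp5h (−0.20 ± 0.06) and Atp5c1 (−0.18 ± 0.05). At day 11 they had 0 (7 at an unadjusted p under 0.05), where 10.5% of all genes were called (5.51% lower, 5.01% higher), and at day 28 they had 6 (3 lower, 3 higher), where 19.9% were called (12.6% lower, 7.36% higher). The day 28 split was 7 lower and 2 higher after quantile normalization again and 3 lower and 1 higher after centring. Their arrays lay wholly below sham for 15, 17 and 10 members at days 3, 11 and 28 (15.2%, 17.8% and 18.7% of all genes) and wholly above for 1, 1 and 8 (11.4%, 14.8% and 14.7%). The 0 at day 11 does not show that these hearts equalled sham, since 2 genes were called lower under 3 of the alternatives. The member median on that day was −0.04, the same as over all genes. Of the 42 members 32 were below 0, against 12055 of the 19937 genes. After centring on array medians the member median was −0.02, with 24 of 42 below 0. At day 28 Uqcrc1 (−0.33 ± 0.08), Cox7a1 (−0.21 ± 0.06) and Atp5e (−0.29 ± 0.09) were lower than sham under JQ1, where TAC with vehicle had given −0.28, −0.17 and −0.31. Atp5l, subunit g of the dimer-forming membrane part, was higher (0.36 ± 0.09, limma adjusted p = 0.00473). It stood at 11.61, 11.49 and 11.55 in sham hearts and at 11.96, 12.03 and 11.75 with TAC and JQ1, with no overlap, and the call held in all 13 alternatives. Its sham level was 11.86 ± 0.13 (SD) at day 3 and 11.55 ± 0.06 at day 28, a drift that did not pass (adjusted p = 0.397). Drift of sham hearts passed for 0 members (3 at an unadjusted p under 0.05; 0.0652% of all genes were called). The other 2 of those were Atp5mpl, with sham means of 11.86, 11.73 and 11.63, and Uqcr10, with 10.33, 10.55 and 10.34. Without JQ1 replicate 1 the day 3 count was 0, and without sham replicate 1 or 3 it was 2. The day 28 count was 2 without JQ1 replicate 1 and 3 without JQ1 replicate 2 or sham replicate 2.

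Isoforms of 1 subunit were compared within each array, as the difference of the log2 signals of the 2 genes. This removes what the array or the tissue piece adds equally to both genes, and it shows unequal change, not which gene changed. It does not remove a shift in the mix of cells where cell types carry the 2 isoforms unequally. At day 11 6 of 8 fibroblast and 8 of 8 macrophage markers rose with TAC, and 4 and 6 fell with JQ1. Their part in the isoform differences was not tested. The 6 pairs were tested over the 3 days for TAC and for JQ1, which gives 12 tests (exact permutation within days, 8000 arrangements, two-sided, Benjamini-Hochberg over the 12).

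For subunit 6A the muscle isoform Cox6a2 lost ground to Cox6a1 with TAC. At day 11 the difference was 2.85, 2.91 and 2.89 in sham arrays and 2.47, 2.41 and 2.20 after TAC. The groups did not overlap at days 3 and 11 (changes of −0.40 and −0.52) and overlapped at day 28 (0.02). Over the days the change was −0.30 (exact p = 0.005, adjusted p = 0.012). For subunit 7A the muscle isoform Cox7a1 moved against Cox7a2 by −0.10, −0.12 and −0.11 on the 3 days (mean −0.11, exact p = 0.00375, adjusted p = 0.012). At day 11 Cox7a2 alone had a change of −0.19 that did not pass.

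For subunit 8 the muscle isoform Cox8b moved against Cox8a by 0.02, −0.17 and −0.28 (mean −0.14, exact p = 0.0085, adjusted p = 0.017). At day 28 the difference was 2.27, 2.29 and 2.34 in sham arrays and 2.04, 2.04 and 1.99 after TAC, and Cox8b itself stood at 13.16 and 13.14 in these groups. With JQ1 the difference was larger than with vehicle on each day (0.18, 0.21 and 0.18; mean 0.19, exact p = 0.00025, the smallest this design can give; adjusted p = 0.003). At day 11 it was 2.10, 2.02 and 2.10 with vehicle and 2.27, 2.29 and 2.29 with JQ1. At day 3 it was 2.19, 2.09 and 2.19 with vehicle and 2.52, 2.24 and 2.25 with JQ1. Replicate 1 stood apart there, and without it the day 3 change was 0.09 and the mean over days 0.16. The TAC and JQ1 tests share the TAC vehicle arrays.

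For subunit 4, Cox4i2, an isoform known from lung and from low oxygen, gained on Cox4i1 with TAC (mean 0.21, exact p = 0.004, adjusted p = 0.012). The gain was 0.46 at day 11, from −3.63, −3.72 and −3.72 to −3.29, −3.13 and −3.28, and 0.13 and 0.03 at days 3 and 28. Cox4i2 itself changed by −0.08, 0.13 and −0.09 at days 3, 11 and 28 and was not called on any day. Cox4i1 changed by −0.21, −0.33 and −0.12. For the c subunit of ATP synthase Atp5g1 gained on Atp5g3 (0.13, 0.14 and 0.22; mean 0.16, exact p = 5e-04, adjusted p = 0.003). That result did not hold with the mean of the probe sets (0.06, adjusted p = 0.164), since the dimmer probe set of Atp5g1 showed −0.24, −0.31 and −0.13 with TAC. The pair of Cox6b1 and its testis isoform Cox6b2 did not pass for TAC (adjusted p = 0.47). For JQ1, the Cox6a pair (0.15, adjusted p = 0.0827) and the remaining 4 pairs did not pass.

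**Figure D4:**
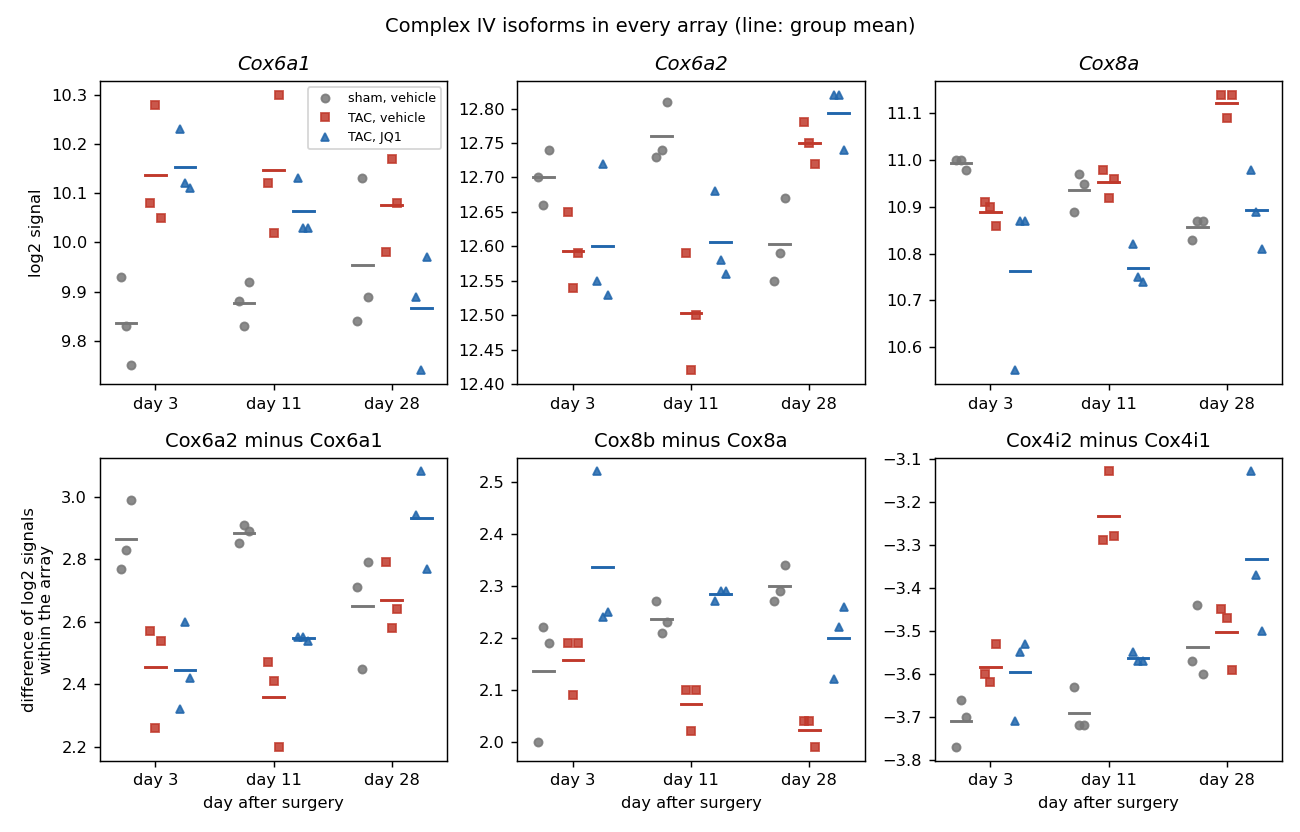
Upper panels: log2 signal of Cox6a1, Cox6a2 and Cox8a in each array (points) with group means (lines). Lower panels: difference of the log2 signals of 2 isoforms within each array, where Cox6a2 minus Cox6a1 is lower after TAC at days 3 and 11 and Cox8b minus Cox8a has its lowest group mean in the day 28 TAC vehicle arrays (1.99 to 2.04); y axes do not start at 0.

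Other genes of the pathway were counted at day 11 from lists that the symbol rule did not use. Over all genes 7.73% fell and 7.8% rose with TAC on that day, and 7.52% rose and 8.43% fell with JQ1. Complex I was taken by symbol, as the 36 genes starting with Ndufa, Ndufb, Ndufc, Ndufs or Ndufv without assembly factors, Ndufa4 among them. Of these 36 genes 18 fell with TAC and 0 rose (median −0.19), led by Ndufab1 (−0.34 ± 0.06) and Ndufv1 (−0.29 ± 0.06). With JQ1 14 rose and 0 fell. Of the 4 complex II genes 3 fell with TAC, with Sdhc at −0.41 ± 0.06, and 2 rose with JQ1. Cytochrome c1 (Cyc1, 0.23 ± 0.07) and cytochrome c (Cycs, 0.19 ± 0.06) rose with JQ1 without a call for TAC. Among 17 complex IV assembly genes 5 fell and 1 rose with TAC: Cox19, which helps bring copper to the enzyme, rose by 0.53 ± 0.11 at day 11 and 0.62 ± 0.11 at day 3. With JQ1 1 of the 17 rose at day 11 and 0 fell, the copper chaperone Cox17 (0.49 ± 0.10), where 7.52% of all genes rose.

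Of the 6 complex III assembly genes 1 fell with TAC at day 11, Uqcc1 (−0.26 ± 0.09), where 7.73% of all genes fell. Ttc19 rose with JQ1 on each day (0.38, 0.27 and 0.45). Of the 4 assembly and inhibitor genes of ATP synthase 1 fell with TAC at day 11. At day 28 3 fell (against 6.98% of all genes) while Atpif1, whose protein inhibits ATP hydrolysis by the enzyme, rose (0.31 ± 0.07). Of the 5 genes listed for ATP export (Slc25a3, Slc25a4, Slc25a5, Vdac1 and the creatine kinase gene Ckmt2) 2 fell with TAC at day 11. They were Vdac1 (−0.24 ± 0.05) and the phosphate carrier Slc25a3 (−0.22 ± 0.06). With JQ1 3 rose (against 7.52% of all genes), among them Slc25a3 (0.23 ± 0.06) and the ADP/ATP carrier Slc25a4 (0.20 ± 0.05).

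Of 13 regulators of mitochondrial genes 5 fell with TAC at day 11 (against 7.73% of all genes) and 0 rose. They included the coactivator Ppargc1a (−0.72 ± 0.08, limma adjusted p = 6.88e-07), Ppara (−0.71 ± 0.11) and Esrrb (−0.56 ± 0.10), an estrogen-related receptor. With JQ1 4 rose at day 11 (against 7.52% of all genes). Nrf1 (0.47 ± 0.08), Ppargc1a (0.42 ± 0.08) and the estrogen-related receptor gene Esrra (0.27 ± 0.07) had the smallest p-values. At day 28 6 of the 13 were lower with TAC (against 6.98% of all genes). With JQ1 2 fell on that day (against 12.4% of all genes), Esrrb (−0.37 ± 0.10) and Gabpa (−0.36 ± 0.12).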

How the data were processed

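Per the labels, RNA from mouse hearts was made into cDNA with the Ambion WT Expression Kit and hybridised to Affymetrix whole-transcript arrays. The authors deposited log2 signal values of 34760 probe sets on 27 arrays, ranging from 1.67 to 14.2. Their normalization, not given in the sources used here, was left as it stood. In the submitters' processing notes the tool limma appears without a version. Probe sets naming several genes (1321) or none (11799) were left out, and the highest-mean probe set stood for each of 954 genes with several, which left 19937 genes. Cox7c was left out this way.

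One linear model with a mean per group was fitted with lmFit and eBayes (limma 3.58.1, R 4.3.3, data.table version 1.17.8), with 18 residual and 4.9 prior degrees of freedom, so that the spread of a gene is shared by the 9 groups. p-values were adjusted (Benjamini-Hochberg) over all genes of a comparison, and the call threshold was 0.05. The number of arrays, 3 a group, limits the precision. Figures were drawn with Python 3.11.15 and matplotlib 3.10.9. The 42 members, the pathway lists and the marker lists were chosen with earlier results of these data known. Values of single arrays are given for the 4 members per complex and comparison with the smallest p among those called, the isoform pairs and the 3 smallest p of each test between days, with a few left out for length. List genes named have the 3 smallest p among those called. The alternatives were quantile normalization again, centring on array medians, the mean of each gene's probe sets, a fit without the dimmest genes (1 in 3), eBayes with its trend and robust options, the replicate number as a block, only the 2 groups compared, and leaving out each array in turn.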

Additional observations from a re-analysis of the deposited data

Results flagged for a closer look

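Cox6a2, the heart and muscle isoform of complex IV subunit 6A, changed with TAC in a way that differed between days (F test of limma, adjusted p = 0.0496). All TAC arrays were below sham at day 3 (−0.11) and day 11 (−0.26), and all were above sham at day 28 (0.15). The test of the difference between days brought it here. It passed narrowly, and the adjusted p was 0.0859 after centring each array on its median and 0.0658 with the replicate number as a block.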

How the results depend on the processing

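Counts of members called moved as follows. With quantile normalization again they were 4 for TAC at day 3, 3 for JQ1 at day 11, 2 for TAC with JQ1 against sham at day 11 and 3 for the JQ1 mean. With centring on array medians they were 0 for TAC at day 3, 4 for the JQ1 mean and 0 for the TAC effect by day. Without the dimmest genes they were 5 for TAC at day 3, 13 and 6 for JQ1 at days 11 and 28, 2 for TAC with JQ1 against sham at day 11 and 3 for the TAC effect by day. With trend and robust options they were 8 and 23 for TAC at days 3 and 11, 16 and 7 for JQ1 at days 11 and 28, 2 for TAC with JQ1 against sham at day 11, 13 for the JQ1 mean and 3 for the TAC effect by day. With only the 2 groups compared they were 0, 7 and 1 for TAC at days 3, 11 and 28, 0 for JQ1 at day 28, and 0 and 1 for TAC with JQ1 against sham at days 3 and 28. The causes were not tested.

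With the replicate number as a block the counts were 0 for TAC at day 3, 5 for the JQ1 mean and 0 for the TAC effect by day. Same-numbered arrays of different groups did not deviate together (correlations from −0.462 to 0.50, median 0.00209; 18 of 54 correlated best with their own number), so the numbers were not treated as pairing.

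When single arrays were left out, counts ranged from 0 to 3, 7 to 12 and 3 to 7 for TAC at days 3, 11 and 28, and 0 to 0, 1 to 4 and 1 to 3 for JQ1. For TAC with JQ1 against sham they ranged from 0 to 6, 0 to 0 and 2 to 6. The means over days gave 16 to 19 for TAC and 4 to 10 for JQ1, and the tests between days 0 to 2 for TAC and 0 for JQ1 and sham. No called change of a member turned its direction under any alternative run.

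Among isoform differences, Atp5g1 minus Atp5g3 for TAC was 0.06 with the mean of probe sets (adjusted p = 0.164). With quantile normalization again the JQ1 values passed for Cox6a2 minus Cox6a1 (0.15, adjusted p = 0.0461) and Atp5g1 minus Atp5g3 (−0.08, adjusted p = 0.028), and Cox6b2 minus Cox6b1 turned sign at 0.00. Single omissions gave −0.06 to 0.04 for Cox6b2 minus Cox6b1, −0.01 to 0.02 for Cox7a1 minus Cox7a2, 0.11 to 0.17 for Cox6a2 minus Cox6a1 and −0.08 to −0.04 for Atp5g1 minus Atp5g3 with JQ1.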

Other observations

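Cox7c, a complex IV subunit, could not be read alone, because its 3 probe sets also name the gene Gm12338. All 3 were lower with TAC at day 11 (−0.15, −0.13 and −0.52) and higher with JQ1 (0.17, 0.16 and 0.81). The brightest had levels of 13.32, 13.31 and 13.41 in sham arrays, 13.25, 13.07 and 13.28 after TAC and 13.41, 13.35 and 13.36 with JQ1. The dimmest had 10.29 ± 0.13, 9.76 ± 0.25 and 10.57 ± 0.09 (mean ± SD, n = 3). These probe sets were in no test.

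Some members have dimmer probe sets with other values, and whether the brightest also detect pseudogenes was not checked. The dimmer probe set of Atp5pb showed −0.13 with TAC at day 11, where the brighter showed −0.22. Of the 5 probe sets of Atp5l 3 showed JQ1 changes of 0.30, 0.07 and 0.36 at day 11, where the brightest showed 0.00 and the dimmest −0.26. At day 28 the 5 lay between 0.16 and 0.41.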
